A study of Arabidopsis thaliana with 27 samples.

Results

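The comparison described here sets the micropylar and chalazal endosperm (MCE) against the radicle with the hypocotyl (RAD), both dissected from dormant (D) Arabidopsis thaliana seeds of the accession Cvi after 24 h in water. Its members are the 3 MCE arrays and the 3 RAD arrays labelled 24 h, which makes 6 of the 27 arrays analysed, and all 21313 genes of the deposited table. The remaining arrays hold D MCE and D RAD at 3, 7 and 12 hours after sowing (HAS) and whole dry D seeds, with 3 arrays per group. All groups are the wild accession without a transgene or a mutation, and all seeds were dormant. The plants were grown in 3 replicates, but the labels do not tie an array number to a plant replicate, so p-values measure the spread between these arrays. For the RAD, RNA was obtained with a column kit (Absolutely RNA Nanoprep), whereas for the MCE and the dry seeds a hot borate method was followed by a column clean-up. Compartment and isolation method therefore cannot be told apart in any difference between MCE and RAD. Fewer cells of a type and less RNA per cell cannot be told apart in such tissue either. Values are log2 RMA values, a logarithmic measure of probe brightness per gene in which a difference of 1 is a doubling.

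In a mature Arabidopsis seed the endosperm is a thin living tissue between the dead testa and the embryo. At the micropylar end it covers the radicle tip and holds the radicle back until the seed germinates. The endosperm stores oil and protein, synthesises and exports abscisic acid (ABA), and loosens its walls when germination proceeds. The radicle and the hypocotyl form the lower axis of the embryo, whose cells elongate to complete germination. A dormant seed takes up water and is metabolically active, but does not complete germination under conditions that would otherwise allow it.

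At 24 HAS, 633 genes (2.97% of all genes) exceeded their RAD level 3-fold or more in the MCE, and 430 (2.02%) did so in the RAD relative to the MCE, in a limma fit with Benjamini-Hochberg adjustment at 0.05. Group means under 4 were raised to 4 before this fold was taken, so that dim genes did not pass on noise, and a gene that met both criteria is described as called. At any fold, 4025 genes (18.9%) were past the adjusted p towards the MCE and 4373 (20.5%) towards the RAD. The MCE side held the larger differences. At least 10-fold differences were found for 119 genes of the MCE side and 24 of the RAD side, and at least 32-fold differences for 34 and 0, respectively. The 3 MCE arrays lay wholly above the 3 RAD arrays for 631 of the 633 genes, and wholly below them for 429 of the 430. These genes were chosen by their difference on the same arrays, so this separation largely follows from the choice. The share over all genes is not given here. The exceptions on the MCE side were HSP17.6II, a small heat shock protein (7.24, 5.02 and 7.27 on the MCE arrays and 4.39, 5.11 and 4.07 on the RAD arrays), and AT5G18310 (7.2, 8.19 and 8.40 on the MCE arrays and 4.87, 7.31 and 6.33 on the RAD arrays). The exception on the RAD side was AGP31, an arabinogalactan protein, whose first MCE array stood at 8.80 beside 6.04 and 6.41. These 3 genes were picked out after their values were seen.

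Of the 11125 genes with a mean above 5 in at least 1 compartment, most were above 5 in both. A mean above 5 was found for 10433 genes in the MCE and 10288 in the RAD, of which 9596 were shared, 837 were above 5 only in the MCE and 692 only in the RAD. With a wider margin (above 6 in one compartment and below 5 in the other), 305 genes belonged to the MCE and 168 to the RAD. In 303 of the 633 MCE-high genes the RAD mean was below 5, and in 172 of the 430 RAD-high genes the MCE mean was below 5. Correlations between arrays across all genes were 0.988 to 0.995 within the MCE, 0.992 to 0.993 within the RAD and 0.929 to 0.941 between them. The median SD between arrays for genes above 5 was 0.173 (MCE) and 0.152 (RAD).

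**Figure D1:**
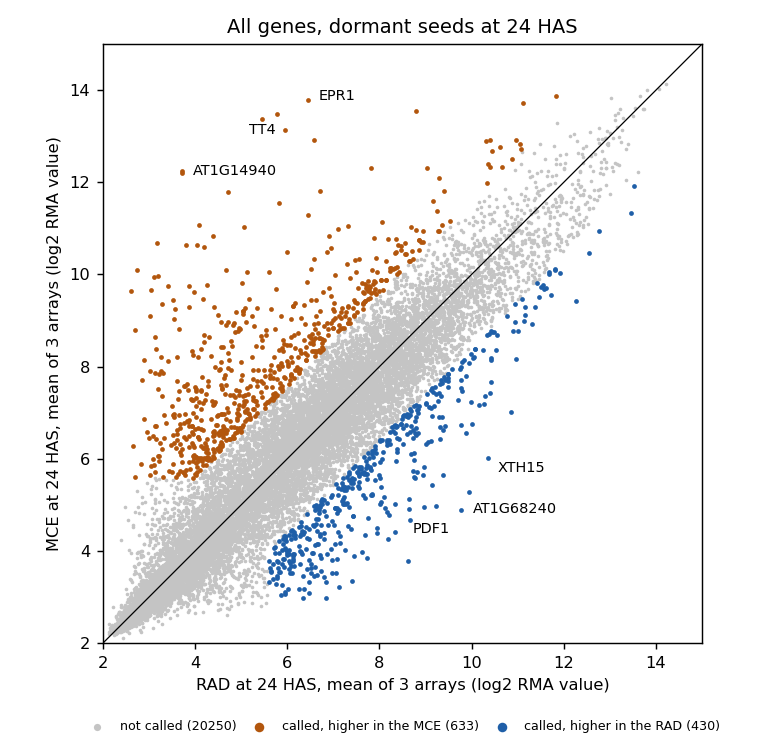
Mean log2 RMA value of each gene in the RAD (horizontal axis) and in the MCE (vertical axis) at 24 HAS, each the mean of 3 arrays, with the line of equality. The 633 genes called higher in the MCE (orange) spread farther from the line than the 430 called higher in the RAD (blue), up to a RAD mean of 3.71 and an MCE mean of 12.25 for AT1G14940.

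The dissection was checked against marker lists. Of 9 endosperm markers, 2 were MCE-high and 0 RAD-high, beside 2.97% and 2.02% of all genes. Past the adjusted p were 4 towards the MCE and 0 towards the RAD, beside 18.9% and 20.5% of all genes, and 5 were not past it. These shares of all genes are the background of the other marker lists too. A mean above 5 was found for 4 endosperm markers in the MCE and 4 in the RAD. The summed linear level of the endosperm list was 14660 to 16620 in the MCE arrays, 544 to 611 in the RAD arrays and 7749 to 7915 in the dry seeds. EPR1, an extensin-like protein of the endosperm wall, carried most of this sum in the MCE. Of 30 regulators of the embryonic root and embryo axis, 3 were called, all RAD-high, and 18 were past the adjusted p towards the RAD against 4 towards the MCE. Their summed level was 2830 to 3252 in the MCE and 3287 to 3374 in the RAD, and 9 of the 30 had a mean above 5 in the MCE against 17 in the RAD. Of 19 testa markers, 0 were called, 3 had a mean above 5 in the MCE, and the summed level was 332 to 369 in the MCE and 358 to 380 in the RAD. The testa markers TT15 (UGT80B1), a sterol glucosyltransferase, and GATL5, a glycosyltransferase of mucilage, were at 6.73 against 6.58 and 5.20 against 6.03 (MCE against RAD). Of 13 regulators of the shoot apex and cotyledons, 1 was called, in the RAD (AS1, a MYB regulator of leaf development, 5.58 against 7.21), and the summed level ranged over 233 to 239 for the MCE and 336 to 360 for the RAD. The call of AS1 was lost without the first MCE array (-1.56) or the third one (-1.57). KNAT6, a homeobox gene of the meristem, stood at 6.25 against 5.79. The part of other tissues in the differences below was not tested.

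Genes were ranked by the difference between means raised to at least 4, while the differences printed are those of the fit, so that a gene with a dim mean can rank lower than its printed difference. The MCE-high genes with the largest differences included those of secreted and defence-related proteins and enzymes of flavonol synthesis. EPR1 (AT2G27380) measured 13.84, 13.78 and 13.72 on the MCE arrays and 6.16, 6.16 and 7.01 on the RAD arrays, a difference of 7.34 ± 0.172 (SE, n = 3 per compartment, limma adjusted p = 1.31e-21). NSP2 (AT2G33070), a nitrile specifier protein that steers the breakdown of glucosinolates in crushed tissue, measured 13.49, 13.47 and 13.48 on the MCE arrays and 5.76, 5.35 and 6.19 on the RAD arrays. The 3 MCE arrays of NSP2 differed by only hundredths, and its difference was 7.72 ± 0.172 (adjusted p = 5.19e-22). The largest difference of all called genes was that of AT1G14940, which measured 11.88, 12.25 and 12.61 on the MCE arrays and 3.90, 3.47 and 3.76 on the RAD arrays, a 304-fold difference with the RAD mean raised to 4. Its neighbour AT1G14950 measured 13.20, 13.38 and 13.54 on the MCE arrays and 5.36, 4.98 and 6.01 on the RAD arrays, and MLP31 (AT1G70840), a major latex protein-like protein, had MCE arrays from 11.86 to 12.63 and RAD arrays from 3.54 to 3.82. All MCE arrays of these 5 genes were above 11.8, and all RAD arrays were at or below 7.01. That their arrays do not overlap follows from the choice, as genes with overlapping arrays were left out of this ranking. AT1G14940 and AT1G14950 lie side by side, and whether their probes share signal was not tested.

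The other genes among the 12 largest of the MCE side had the same form, with MCE arrays far above RAD arrays. CYP714A1 (AT5G24910), a cytochrome P450 of a family that inactivates gibberellins (GA), measured 10.91, 10.46 and 10.57 on the MCE arrays and 3.70, 3.85 and 3.85 on the RAD arrays. AT3G25260, annotated as NPF4.1 of the nitrate and peptide transporter family, measured 11.06, 10.77 and 10.65 on the MCE arrays and 4.53, 4.59 and 4.05 on the RAD arrays. Both were also high in the MCE at 3 HAS, at 11.04 and 9.74. Chalcone synthase TT4 and flavonol synthase FLS1 are described with their pathway. The remaining 3, AT2G43590, AT3G21380 and AT5G44380, carry no symbol in the gene table, and their differences were 7.06 ± 0.303, 6.99 ± 0.191 and 7.51 ± 0.148.

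The RAD-high genes with the largest differences held epidermis, growth and cell wall genes. PDF1 (AT2G42840), a proline-rich protein of the protoderm that marks the outer cell layer of the embryo, measured 5.34, 5.01 and 4.57 on the MCE arrays and 9.20, 9.25 and 9.24 on the RAD arrays. The RAD arrays of PDF1 lay within hundredths of each other, and its difference was 4.26 ± 0.193 (adjusted p = 1.31e-15). XTH15 (AT4G14130), an enzyme that cuts and rejoins xyloglucan in growing walls, measured 6.19, 5.99 and 5.85 on the MCE arrays and 10.60, 9.88 and 10.61 on the RAD arrays. XYL1 (AT1G68560), an alpha-xylosidase that trims xyloglucan, measured 4.96, 4.11 and 4.16 on the MCE arrays and 8.10, 8.82 and 8.10 on the RAD arrays. DGR2 (AT5G25460), a secreted wall protein, measured 7.31, 6.78 and 6.96 on the MCE arrays and 11.01, 10.70 and 10.85 on the RAD arrays, so that it was well above 5 in both compartments. No MCE array of these 4 genes reached the lowest RAD array.

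Cell division and transcription were represented by AUR3, GRF7 and HB33. AUR3 (AT2G45490), an Aurora kinase of mitosis, measured 3.96, 4.56 and 4.24 on the MCE arrays and 7.96, 8.15 and 8.42 on the RAD arrays. GRF7 (AT5G53660), a growth-regulating factor, measured 5.34, 4.65 and 4.74 on the MCE arrays and 8.81, 8.40 and 8.72 on the RAD arrays, and HB33 (AT1G75240), a zinc finger homeodomain protein, measured 6.07, 5.62 and 5.26 on the MCE arrays and 9.20, 9.52 and 9.41 on the RAD arrays. All of these transcripts were present in the dry seed, at 6.89, 7.07 and 7.32. AT1G54410, the small dehydrin HIRD11, measured 5.31, 4.70 and 4.88 on the MCE arrays and 8.62, 8.79 and 9.48 on the RAD arrays and was also present in dry seeds at 7.79. The largest difference of the RAD side, of AT1G68240, was 4.87 ± 0.196 (adjusted p = 1.35e-16). AT1G68240, AT2G25980, AT2G20515 and AT5G01210 have no symbol in the gene table, and their RAD means were 9.77, 9.94, 8.61 and 8.67 against MCE means of 4.9, 5.28, 3.78 and 4.68.

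**Figure D2:**
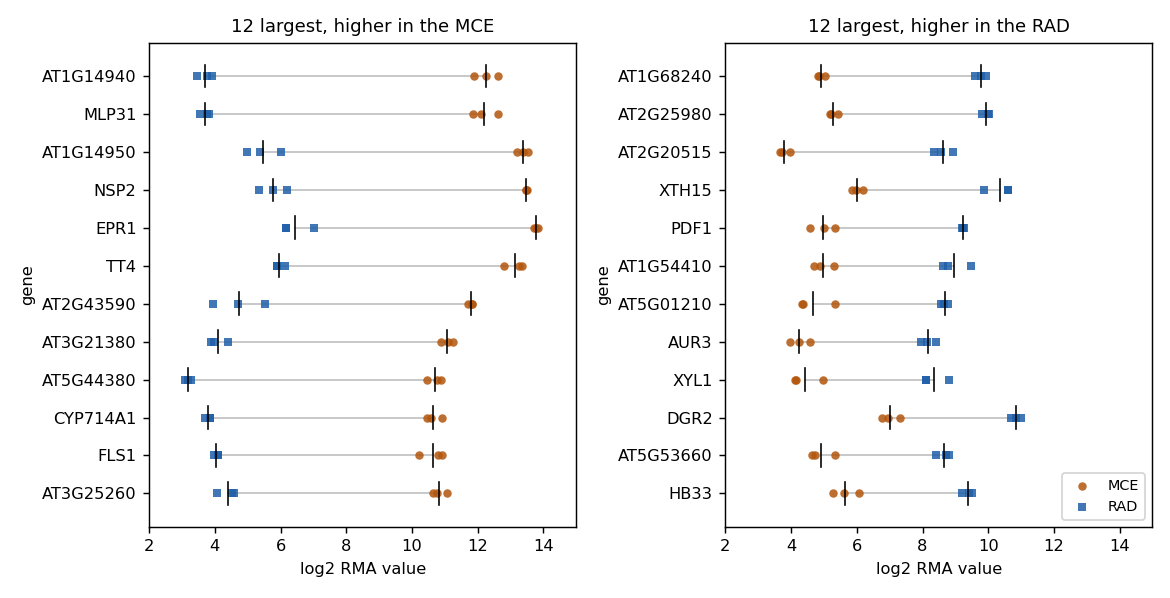
Log2 RMA value on each array (horizontal axis) of the 12 genes ranked first on each side by the difference after means were raised to 4, with the MCE arrays as orange circles, the RAD arrays as blue squares and group means of 3 arrays as vertical ticks. The 24 genes were chosen among those whose MCE and RAD arrays do not overlap. The printed differences run from 6.43 to 8.53 on the left and from 3.72 to 4.87 on the right. Called genes with a dim mean outside the plot, such as MYB31 (7.02) and AT4G29270 (4.06), lie within these ranges.

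Phenylpropanoid and flavonol synthesis had the highest share of MCE-high genes among the lists. Of the 20 measured genes of phenylpropanoid and flavonol synthesis, 14 were MCE-high and 0 RAD-high (2.97% and 2.02% of all genes), with a median difference of 2.58 beside -0.04 over all genes. These shares of all genes are the background of every list that follows. TT4 (AT5G13930), chalcone synthase, which makes the flavonoid skeleton, measured 12.81, 13.34 and 13.25 on the MCE arrays and 6.12, 5.88 and 5.88 on the RAD arrays. FLS1 (AT5G08640), which makes flavonols, measured 10.20, 10.91 and 10.78 on the MCE arrays and 4.08, 3.97 and 4.08 on the RAD arrays, and TT5 (AT3G55120), chalcone isomerase, measured 11.30, 11.80 and 11.53 on the MCE arrays and 5.99, 6.04 and 5.41 on the RAD arrays. PAL1 (AT2G37040), phenylalanine ammonia-lyase at the entry of the pathway, measured 9.79, 10.41 and 9.93 on the MCE arrays and 5.17, 5.05 and 5.15 on the RAD arrays. The differences of these 4 genes were 7.18 ± 0.248, 6.59 ± 0.276, 5.73 ± 0.27 and 4.92 ± 0.196 (adjusted p = 5.28e-18, 2.92e-16, 3.19e-15 and 1.24e-16).

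The whole route from phenylalanine to glycosylated flavonols was covered. Among the members chosen after their values were seen, cinnamate 4-hydroxylase (C4H) was at 10.06 against 7.49, the CoA ligase 4CL3 at 6.68 against 3.68 and flavanone 3-hydroxylase (F3H) at 12.90 against 10.31 (MCE against RAD). Flavonoid 3'-hydroxylase (TT7) differed by 4.48 ± 0.192. PAL2 was at 10.12 against 6.51. The glycosyltransferases UGT78D1, UGT78D2 and UGT89C1, which add sugars to flavonols, differed by 1.9, 1.93 and 2.78. MYB12, the MYB factor that activates flavonol genes, was at 8.95 against 4.84. PAL4 was the member above 5 that did not pass the test, at 7.81 against 8.04 (adjusted p = 0.192), and the other 5 uncalled members had means at or below 5 in both compartments. CHIL, a chalcone isomerase-like protein outside the list, was at 9.62 against 3.97.

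Of 23 measured members of the major latex protein-like family, which bind small molecules, 5 were called in the MCE and 0 in the RAD, with a median difference of 0.16. Apart from MLP31, all called members lie in 1 run of neighbouring loci, AT1G14930 to AT1G14960, whose differences in genomic order were 5.99, 8.53, 7.92 and 5.49. AT1G14930 measured 10.98, 10.84 and 11.29 on the MCE arrays and 5.34, 4.98 and 4.84 on the RAD arrays. These loci carry no symbol in the gene table and were placed in the list by locus. AT1G23120, the remaining member above 5, was at 8.85 against 9.82.

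The list of myrosinases, beta-glucosidases, specifier proteins and jacalin lectins, which serve in chemical defence, had 46 measured members, of which 5 were called in the MCE and 1 in the RAD. Beside NSP2 the MCE held 3 called beta-glucosidases named by rule. BGLU19 (AT3G21370) measured 13.32, 13.58 and 13.73 on the MCE arrays and 9.04, 8.36 and 8.96 on the RAD arrays, and BGLU4 (AT1G60090) measured 8.81, 8.77 and 8.83 on the MCE arrays and 5.55, 5.71 and 5.33 on the RAD arrays. BGLU30 (DIN2), known from dark-induced leaves, measured 7.04, 6.53 and 6.43 on the MCE arrays and 4.35, 5.82 and 4.78 on the RAD arrays, and its call was lost without any of 3 arrays (1.5 without the first MCE array, 1.37 without the first RAD array and 1.58 without the third one). The other MCE-high member, AT2G44490, was at 5.97 against 4.34. BGLU44 was the RAD-high member and measured 5.84, 4.58 and 4.94 on the MCE arrays and 7.2, 7.16 and 7.25 on the RAD arrays. NSP5, another nitrile specifier protein and picked out after its value was seen, ran the other way below the fold threshold, at 8.18 against 9.44.

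ABA genes leaned towards the MCE. Of 20 measured genes of ABA synthesis, breakdown and transport, 4 were called in the MCE and 0 in the RAD, 12 were past the adjusted p towards the MCE and 2 towards the RAD (18.9% and 20.5% of all genes), and the median difference was 0.69. NCED2 (AT4G18350), a dioxygenase that cuts carotenoids in the committed step of ABA synthesis, measured 7.08, 8.29 and 7.95 on the MCE arrays and 4.25, 4.31 and 3.91 on the RAD arrays (difference 3.62 ± 0.204, adjusted p = 1.17e-13). ABA3 (AT1G16540), which supplies the molybdenum cofactor of the last synthesis step, measured 6.3, 6.57 and 6.60 on the MCE arrays and 4.44, 4.40 and 4.34 on the RAD arrays. NCED2 and ABA3 were thus at higher transcript levels in the MCE on all 3 arrays.

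The called ABA transporters differed in the same direction. ABCG25 (AT1G71960), an ABA exporter, measured 9.27, 9.26 and 9.22 on the MCE arrays and 6.93, 6.68 and 7.35 on the RAD arrays. ABCG31 (AT2G29940), another ABC transporter known to move ABA out of the endosperm, measured 6.95, 5.61 and 5.64 on the MCE arrays and 2.91, 3.56 and 3.13 on the RAD arrays. The MCE mean of ABCG25 went from 8.03 at 3 HAS to 9.25 at 24 HAS, and its RAD mean from 4.18 to 6.98. The MCE mean of ABCG31 went from 10.83 to 6.06. The MCE minus RAD differences of both genes narrowed between these times, from 3.85 to 2.27 for ABCG25 and from 6.25 to 2.86 for ABCG31. The synthesis genes NCED5, NCED9 and ABA1 and the breakdown gene CYP707A2, named after their values were seen, were past the adjusted p towards the MCE, with differences of 0.66, 0.97, 0.73 and 1.55, all under 3-fold.

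Of 27 measured ABA signalling genes, 1 was called on each side, beside 2.97% and 2.02% of all genes. Past the adjusted p were 17 towards the MCE and 3 towards the RAD, beside 18.9% and 20.5% of all genes. ABI3 (AT3G24650), a B3 factor of seed maturation, measured 8.97, 9.01 and 8.83 on the MCE arrays and 7.37, 7.03 and 7.54 on the RAD arrays. Its difference of 1.62 ± 0.15 (adjusted p = 1.54e-09) was just over the 3-fold threshold, and it fell under that threshold when arrays were scaled again by quantiles (1.56) or medians (1.57) or without the second RAD array (1.48). ABI4 (AT2G40220), an AP2 factor known for its action in the embryo, measured 4.84, 4.69 and 4.77 on the MCE arrays and 7.40, 7.60 and 7.27 on the RAD arrays, a difference of 2.66 ± 0.175 towards the RAD (adjusted p = 2.69e-12). The 3 MCE arrays of ABI4 were all below 5 and the 3 RAD arrays all above 7.

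Of 18 regulators of dormancy and seed maturation, 0 were called in the MCE and 1 in the RAD, beside 2.97% and 2.02% of all genes. Past the adjusted p were 9 towards the MCE and 2 towards the RAD, beside 18.9% and 20.5%. CHO1 (AIL5, AT5G57390), an AP2 factor, was the called member and measured 7.13, 6.53 and 6.39 on the MCE arrays and 9.39, 9.04 and 9.52 on the RAD arrays. SOM, a zinc finger repressor of light-dependent germination, was at 9.71 against 9.26, and PHYA, a red and far-red photoreceptor, at 9.44 against 9.48. DOG1, the quantitative regulator of dormancy, and MFT, a regulator of ABA sensitivity, were looked up after the values were seen. DOG1 measured 3.83, 4.01 and 4.34 on the MCE arrays and 5.79, 5.48 and 4.96 on the RAD arrays (adjusted p = 3.21e-06), and MFT measured 9.61, 9.31 and 9.14 on the MCE arrays and 8.46, 7.80 and 8.12 on the RAD arrays (adjusted p = 3.78e-06). DOG1 was thus on the RAD side and MFT on the MCE side, and neither reached 3-fold.

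Of 21 measured genes of GA synthesis and inactivation, 1 was called in the MCE (4.76%, beside 2.97% of all genes) and 0 in the RAD (beside 2.02%). This was GA2OX6 (AT1G02400), a 2-oxidase that inactivates GA, which measured 7.06, 6.91 and 7.57 on the MCE arrays and 4.71, 4.28 and 4.25 on the RAD arrays (difference 2.76 ± 0.261, adjusted p = 2.3e-09). CYP714A1, given above, is not in this list and was at 10.65 against 3.80, a larger difference. Of the 21 genes, 2 were past the adjusted p towards the MCE and 7 towards the RAD, beside 18.9% and 20.5% of all genes. The oxidases of early synthesis steps were present on both sides, with GA3 (ent-kaurene oxidase) at 10.36 against 10.20 and KAO2 at 7.56 against 8.62. Of 12 genes of GA signalling, 0 were called in the MCE and 1 in the RAD (8.33%, beside 2.02% of all genes), and 0 and 5 were past the adjusted p. RGL3 (AT5G17490), a DELLA repressor of GA responses, measured 5.59, 4.84 and 4.61 on the MCE arrays and 7.80, 8.13 and 8.09 on the RAD arrays (difference 2.99 ± 0.227, adjusted p = 4.15e-11). The DELLA genes GAI and RGA were above 8 in both compartments, at 8.91 against 9.96 and 8.35 against 8.84.

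Of 23 jasmonate genes, 4 were MCE-high and 0 RAD-high, beside 2.97% and 2.02% of all genes. The lipoxygenase LOX4 (AT1G72520), which starts jasmonate synthesis, measured 8.02, 8.91 and 9.12 on the MCE arrays and 4.19, 3.78 and 4.63 on the RAD arrays (difference 4.48 ± 0.257, adjusted p = 1.66e-13). The lipoxygenases LOX3 and LOX6 were at 6.06 against 3.95 and 6.15 against 4.23. JAZ1, a repressor that is itself induced by jasmonate, measured 6.52, 6.91 and 6.88 on the MCE arrays and 3.39, 3.76 and 2.94 on the RAD arrays. Of 15 auxin transport genes, 0 were called in the MCE and 1 in the RAD (6.67%, beside 2.02% of all genes), PIN2 (EIR1, AT5G57090), the root efflux carrier, which measured 4.89, 4.25 and 4.49 on the MCE arrays and 7.57, 7.22 and 7.16 on the RAD arrays. The kinase PID and the influx carrier AUX1 were at 7.87 against 7.46 and 6.46 against 6.44. Of 28 AUX/IAA repressors, 0 were called in the MCE and 1 in the RAD (3.57%, beside 2.02% of all genes). This was IAA2 (3.79 against 6.12), with IAA9 at 9.72 against 9.05 and IAA13 at 7.48 against 8.0. Of 14 ethylene synthesis genes, 0 were called, with ACS2 at 7.49 against 7.21 and ACS6 at 6.67 against 6.58.

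All calls among tubulins, aquaporins and alpha-expansins were on the RAD side. Of 11 measured tubulins, the subunits of microtubules, 0 were MCE-high and 5 RAD-high (2.97% and 2.02% of all genes), 8 were past the adjusted p towards the RAD, and the median difference over the list was -0.90. TUA2 (AT1G50010) measured 6.92, 6.62 and 6.32 on the MCE arrays and 8.94, 9.69 and 9.50 on the RAD arrays, and TUB7 (AT2G29550) measured 6.24, 5.90 and 5.73 on the MCE arrays and 8.29, 8.60 and 8.16 on the RAD arrays. TUA4 and TUA6 were at 5.21 against 7.84 and 7.14 against 9.18. Tubulin genes are near-identical copies in part, so probes of TUA2, TUA4 and TUA6 may share signal.

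Of 18 aquaporins, channels for water, 0 were called in the MCE and 3 in the RAD. PIP2A (PIP2;1) measured 4.35, 4.52 and 4.35 on the MCE arrays and 7.14, 7.46 and 6.70 on the RAD arrays, with all MCE arrays below 5 and all RAD arrays above 6. PIP1C (PIP1;3) and PIP1A (PIP1;1) were at 3.51 against 6.10 and 4.53 against 6.41, and both calls were lost with means raised to 5. The seed tonoplast aquaporin TIP3;1, named after its value was seen, was at 13.50 against 13.17, past the adjusted p towards the MCE (0.00554) with a difference of 0.33.

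Of 21 alpha-expansins, which loosen walls under acid, 0 were called in the MCE and 3 in the RAD. EXPA15 measured 4.31, 4.09 and 4.6 on the MCE arrays and 6.0, 6.21 and 5.91 on the RAD arrays, EXPA3 (EXP3) measured 3.67, 3.16 and 3.80 on the MCE arrays and 5.46, 6.31 and 5.15 on the RAD arrays, and EXPA1 measured 5.43, 3.35 and 2.93 on the MCE arrays and 5.94, 6.73 and 5.70 on the RAD arrays. The first MCE array of EXPA1 stood apart from the others, and the call of EXPA1 was lost in the methods' t-test, the per-gene test named in the study's methods. The call of EXPA15 was lost without the second MCE array (-1.58), and that of EXPA3 without the second RAD array (-1.76 before its MCE mean was raised to 4) and with arrays centred on their medians. With means raised to 5 in place of 4, all 3 calls were lost. EXPA8, singled out after its values were seen, was the alpha-expansin past the adjusted p towards the MCE, at 5.62 against 4.23 (adjusted p = 0.0116).

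Xyloglucan endotransglucosylases split between the compartments. Of 33 measured members, 5 were called in the MCE and 2 in the RAD, with a median difference of 0.07. XTH11 (AT3G48580) measured 10.97, 11.51 and 11.40 on the MCE arrays and 6.72, 6.39 and 6.25 on the RAD arrays (difference 4.84 ± 0.195, adjusted p = 1.43e-16), and XTH18 (AT4G30280) measured 5.67, 6.35 and 6.94 on the MCE arrays and 3.68, 3.50 and 3.84 on the RAD arrays. XTH24 and XTH23 (XTR6) were also called in the MCE but varied between arrays. XTH24 measured 7.55, 9.33 and 9.65 on the MCE arrays and 3.13, 7.21 and 4.51 on the RAD arrays, and XTH23 measured 4.74, 7.00 and 6.99 on the MCE arrays and 4.33, 4.28 and 3.96 on the RAD arrays. The call of XTH23 was lost in the methods' t-test, and that of XTH24 in this test after adjustment. The other MCE-high member, XTH25, named after its value was seen, was at 12.51 against 10.88. On the RAD side, XTH4 measured 3.65, 3.55 and 3.93 on the MCE arrays and 6.11, 6.23 and 6.51 on the RAD arrays beside the larger difference of XTH15.

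Other wall genes were few. Of 6 endo-beta-mannanases, which digest mannan in endosperm walls, 1 was called in the MCE and 0 in the RAD. MAN7 (AT5G66460) measured 9.62, 8.27 and 7.99 on the MCE arrays and 6.39, 6.86 and 6.27 on the RAD arrays, so that its first MCE array lay above the others, and its call was lost in the methods' t-test after adjustment. MAN2 was at 4.47 against 5.23. Of 13 cellulose synthesis genes, 1 was called, COB in the MCE (8.69 against 6.89), with CESA3 (CEV1) at 9.30 against 8.72 and CESA6 at 8.2 against 8.08. Of 33 genes of cutin, suberin and wax, 2 were called in the MCE and 0 in the RAD, the lipid exporter ABCG11 (8.61 against 6.71) and the fatty acid elongase KCS1 (5.78 against 3.90).

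Of 27 genes of the cell cycle and DNA replication, 0 were called in the MCE and 2 in the RAD, while 5 were past the adjusted p towards the MCE and 10 towards the RAD. CYCD3;3, a D-type cyclin, measured 4.72, 4.68 and 4.71 on the MCE arrays and 6.47, 6.80 and 6.59 on the RAD arrays. PCNA1, the sliding clamp of replication, measured 4.36, 3.95 and 3.95 on the MCE arrays and 5.21, 5.95 and 6.0 on the RAD arrays, and its call was lost when the second array or the third one of either compartment was left out (-1.57 and -1.57 for the MCE, -1.52 and -1.50 for the RAD). Of the 3 called regulators of the embryo axis, PDF1 is given above. BBM (AT5G17430), an AP2 factor of embryo and root development, measured 3.42, 3.47 and 3.65 on the MCE arrays and 7.17, 6.84 and 6.93 on the RAD arrays. WER (MYB66, AT5G14750), a MYB factor of root epidermis patterning, measured 3.1, 2.96 and 3.11 on the MCE arrays and 5.62, 5.99 and 5.97 on the RAD arrays. All MCE arrays of BBM and WER lay below 4, the level to which dim means were raised.

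All 17 genes of storage proteins and oil bodies had a mean above 5 in at least 1 compartment, and 2 were called in the MCE and 1 in the RAD. Past the adjusted p were 3 towards the MCE and 6 towards the RAD (18.9% and 20.5% of all genes), with a median difference of -0.09. The albumin SESA2 measured 12.36, 12.36 and 12.47 on the MCE arrays and 10.55, 10.65 and 9.85 on the RAD arrays, and SESA4 measured 11.22, 11.17 and 11.09 on the MCE arrays and 9.77, 9.69 and 9.11 on the RAD arrays. The globulin CRB (CRU2, AT1G03880) measured 11.98, 12.01 and 11.77 on the MCE arrays and 13.80, 13.49 and 13.31 on the RAD arrays, the opposite direction. Albumin genes lie in a cluster of similar copies, so SESA2 and SESA4 may share signal. The differences of SESA4 and CRB were near the 3-fold threshold, and the call of SESA4 was lost without the third RAD array (1.43) or with arrays centred on their medians (1.58). That of CRB was lost without the first RAD array (-1.48) or the third MCE array (-1.54).

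Of 17 genes of oil mobilization, 2 were MCE-high and 0 RAD-high, and 13 were past the adjusted p towards the MCE against 0 towards the RAD (18.9% and 20.5% of all genes), with a median difference of 0.53. ACX2, an acyl-CoA oxidase of peroxisomal beta-oxidation, measured 11.07, 10.99 and 10.74 on the MCE arrays and 9.21, 9.15 and 9.43 on the RAD arrays, and AIM1, a multifunctional protein of the same pathway, measured 10.55, 10.57 and 10.44 on the MCE arrays and 8.98, 8.80 and 8.80 on the RAD arrays. Isocitrate lyase (ICL), malate synthase (MLS) and PCK1 of the glyoxylate cycle and gluconeogenesis, named after their values were seen, were at 13.87 against 13.66, 13.18 against 12.76 and 12.24 against 11.51. Most of the list thus differed by less than 2-fold, in one direction.

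Of 20 late embryogenesis abundant (LEA) genes, which protect dry cells, 2 were called in the MCE and 1 in the RAD. M17 measured 13.63, 13.65 and 13.86 on the MCE arrays and 11.09, 10.86 and 11.40 on the RAD arrays, and RD29B (LTI65) measured 12.79, 12.85 and 12.84 on the MCE arrays and 11.17, 10.76 and 11.21 on the RAD arrays. EM1, an early methionine-labelled protein, measured 11.31, 11.23 and 11.42 on the MCE arrays and 13.45, 13.45 and 13.50 on the RAD arrays, which put it on the RAD side. The 3 genes were above 10 on every array. The dehydrin HIRD11, given above on the RAD side, was not in this list.

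Transporters of sugars and amino acids had 84 measured members, of which 10 were called in the MCE and 2 in the RAD. STP13 (MSS1, AT5G26340), a hexose uptake carrier, measured 9.77, 9.78 and 9.68 on the MCE arrays and 3.56, 4.13 and 3.92 on the RAD arrays (difference 5.87 ± 0.145, adjusted p = 3.67e-21). UMAMIT18 (SIAR1, AT1G44800), an amino acid exporter, measured 8.88, 8.68 and 8.40 on the MCE arrays and 3.22, 3.14 and 3.05 on the RAD arrays, and STP1, another hexose carrier, measured 10.30, 10.30 and 10.35 on the MCE arrays and 7.47, 7.52 and 7.39 on the RAD arrays. LHT7 was at 9.18 against 4.89. The RAD side held SUC2, the sucrose carrier of phloem companion cells, which measured 5.44, 4.99 and 4.78 on the MCE arrays and 7.96, 8.17 and 7.96 on the RAD arrays, and SWEET1, a sugar uniporter, at 6.71 against 8.68. The other 6 MCE-high members, named after their values were seen, were STP14, STP4, LHT1, UMAMIT20, SWEET6 and SWEET15 (SAG29), with differences of 2.04, 2.08, 2.13, 2.40, 1.76 and 1.83.

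Of 9 genes of nitrate uptake and reduction, 2 were called in the MCE and 0 in the RAD. NIA1 (AT1G77760), nitrate reductase, measured 12.47, 12.43 and 12.04 on the MCE arrays and 9.32, 9.04 and 8.72 on the RAD arrays (difference 3.28 ± 0.181, adjusted p = 8.05e-14). NLP8 (AT2G43500), a factor of nitrate-promoted germination, measured 10.89, 11.10 and 10.85 on the MCE arrays and 9.46, 9.03 and 9.37 on the RAD arrays, close to the threshold, and its call was lost without the second MCE array (1.58) or the second RAD array (1.53). Of 44 glutathione transferases, which detoxify, 3 were called in the MCE (GSTU10, GSTU17 and GSTU9) and 2 in the RAD (GSTU13 and GSTU14). GSTU10 measured 8.40, 8.13 and 8.83 on the MCE arrays and 4.65, 4.65 and 5.07 on the RAD arrays, GSTU17 (ERD9) was at 8.59 against 5.45 and GSTU9 at 6.99 against 5.35. The call of GSTU9 was lost without the first RAD array (1.48), the second RAD array (1.45) or the third MCE array (1.48). GSTU13 measured 4.46, 5.0 and 4.68 on the MCE arrays and 7.73, 8.02 and 7.53 on the RAD arrays, and its neighbour GSTU14 was at 3.27 against 5.88. Of 19 pathogen defence genes, 2 were called in the MCE and 0 in the RAD. The defensin-like PDF1.4 measured 8.84, 9.39 and 10.18 on the MCE arrays and 4.17, 4.32 and 7.02 on the RAD arrays, with the last of its RAD arrays apart from the others. WRKY33, a factor of defence responses, measured 9.53, 10.17 and 10.27 on the MCE arrays and 7.22, 6.52 and 7.35 on the RAD arrays.

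More transcription factors were MCE-high than RAD-high. Of 579 measured factors, 34 were called in the MCE (5.87%, beside 2.97% of all genes) and 13 in the RAD (2.25%, beside 2.02%). MYB31 (AT1G74650) measured 8.79, 9.93 and 10.19 on the MCE arrays and 2.67, 2.45 and 2.72 on the RAD arrays, and all its RAD arrays were below 3. TGA9, a bZIP factor known from anther development, measured 9.32, 8.91 and 8.69 on the MCE arrays and 4.66, 4.56 and 4.48 on the RAD arrays. Its relative TGA10 measured 8.28, 8.25 and 8.24 on the MCE arrays and 4.16, 3.63 and 4.06 on the RAD arrays. WRKY48 measured 8.37, 8.78 and 8.76 on the MCE arrays and 4.21, 4.49 and 4.22 on the RAD arrays. Of 62 WRKY genes, 10 were called in the MCE (16.1%, beside 2.97% of all genes) and 0 in the RAD (beside 2.02%), with 25 above 5 in at least 1 compartment. Other called members, chosen after their values were seen, were WRKY6 (8.41 against 4.57), WRKY40 (9.93 against 7.37), WRKY28 (6.50 against 3.08) and WRKY8 (6.53 against 3.52).

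The MCE side also held GAMYB-like and auxin-related factors. MYB33, MYB65 and MYB101, relatives of a factor that acts downstream of GA in the cereal aleurone, were at 7.28 against 3.95, 8.22 against 5.24 and 6.95 against 3.52. Of 21 ARF genes, which bind auxin response elements, 4 were called in the MCE (ARF2, ARF4, ARF16 and ARF17) and 1 in the RAD (ARF6), with differences of 1.78, 1.86, 2.14 and 2.64 towards the MCE and 1.81 towards the RAD. LBD16 was at 9.21 against 5.05. These factors were also chosen after their values were seen.

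On the RAD side, LBD12 (ASL5, AT2G30130) measured 2.95, 3.27 and 3.47 on the MCE arrays and 7.32, 7.06 and 7.00 on the RAD arrays, and the heat shock factor HSFA7B measured 6.14, 5.25 and 5.35 on the MCE arrays and 8.92, 8.67 and 8.72 on the RAD arrays. FLC (AT5G10140), the MADS factor known for delaying flowering, measured 7.82, 7.53 and 7.64 on the MCE arrays and 10.51, 10.19 and 10.58 on the RAD arrays (difference 2.76 ± 0.111, adjusted p = 1.35e-16). The FLC mean in the dry seed was 10.48, at the level of the RAD. The factor TCP14, which promotes growth of the embryo, was at 3.99 against 6.27 and was picked out after its value was seen.

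No gene was called in 6 of the lists. These were the 19 testa markers, 8 regulators of the developing endosperm, 14 ethylene synthesis genes, 37 nuclear photosynthesis genes, 12 hypoxia genes and 14 genes of vacuolar proteases and developmental cell death. The regulators ICE1 and FIE, which act in developing endosperm, were at 8.22 against 8.54 and 5.14 against 6.11. The light-harvesting gene LHCB4.1 was at 8.08 against 7.19, and PSI-P, of the same photosynthesis list, at 6.3 against 7.55. The hypoxia genes ADH1 and PDC2 were at 10.61 against 10.33 and 10.11 against 9.67. Of the vacuolar proteases, 8 of 14 were past the adjusted p towards the MCE and 0 towards the RAD (18.9% and 20.5% of all genes), with beta-VPE at 13.01 against 12.12 and gamma-VPE at 8.05 against 8.27. RD21A, a cysteine protease picked out after its value was seen, was at 5.07 against 2.91 and missed the call because its RAD mean was raised to 4.

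**Figure D3:**
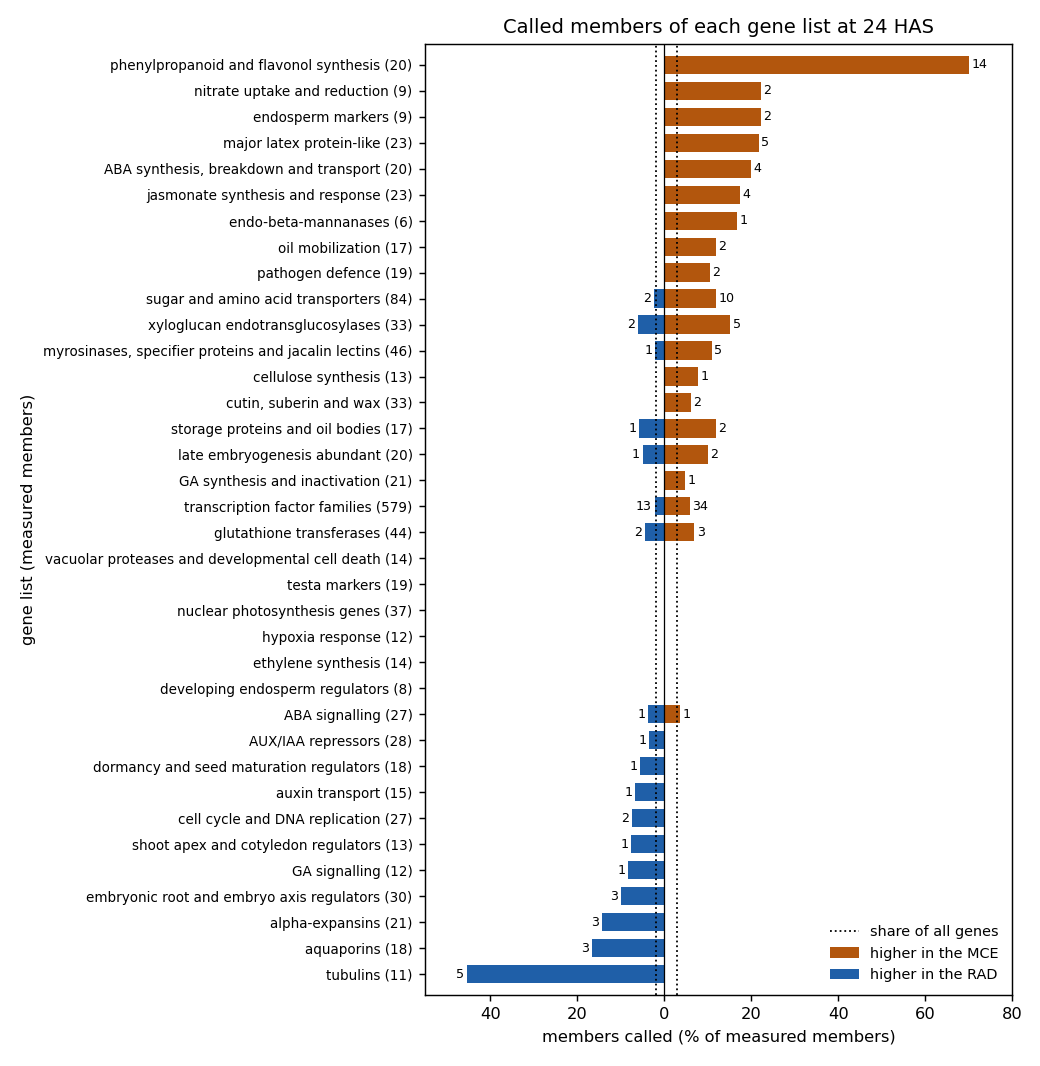
Share of the measured members of each gene list that were called at 24 HAS (horizontal axis, percent), with MCE-high members in orange to the right and RAD-high members in blue to the left, counts beside the bars and dotted lines at the shares of all genes (2.97% and 2.02%). Phenylpropanoid and flavonol synthesis reaches 70.0% on the MCE side, and tubulins 45.5% on the RAD side.

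The differences at 24 HAS were in part those of earlier times. Of the 633 MCE-high genes, 288 were also called in the MCE at 3 HAS, 431 at 7 HAS and 460 at 12 HAS, where 1.93%, 3.15% and 3.37% of all genes were called. These shared genes made up 45.5% of the 24 HAS list and 69.9% of the 3 HAS list. Of the 430 RAD-high genes, 140 were also called in the RAD at 3 HAS, 247 at 7 HAS and 276 at 12 HAS, where 1.14%, 1.68% and 1.71% of all genes were called, and the shared genes with 3 HAS made up 32.6% and 57.9% of the 2 lists. At all 4 times, 247 genes were MCE-high and 119 RAD-high, whereas 107 and 109 were called at 24 HAS only. The opposite call at 3 HAS was found for 1 MCE-high gene and 0 RAD-high genes.

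AT1G14940 and EPR1 were called in the MCE at every time, with moves under 3-fold from 3 to 24 HAS. The MCE mean of EPR1 was 13.70, 13.65, 13.79 and 13.78 at 3, 7, 12 and 24 HAS, and its RAD mean was 7.27, 6.69, 6.46 and 6.44. NSP2 and AT1G14950 were also called throughout, but their differences moved by 2.36 and 2.89 from 3 HAS. In the RAD, NSP2 went from 8.46 to 5.77 and AT1G14950 from 8.79 to 5.45 between 3 and 24 HAS, while their MCE means stayed above 13. TT4 differed in its course. Its MCE mean was 6.89, 10.56, 12.23 and 13.13, with 4.30, 5.46, 5.78 and 5.96 in the RAD. On the RAD side, the RAD mean of TUA2 was 4.57, 6.17, 7.82 and 9.38, beside 4.89, 5.32, 6.22 and 6.62 in the MCE.

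**Figure D4:**
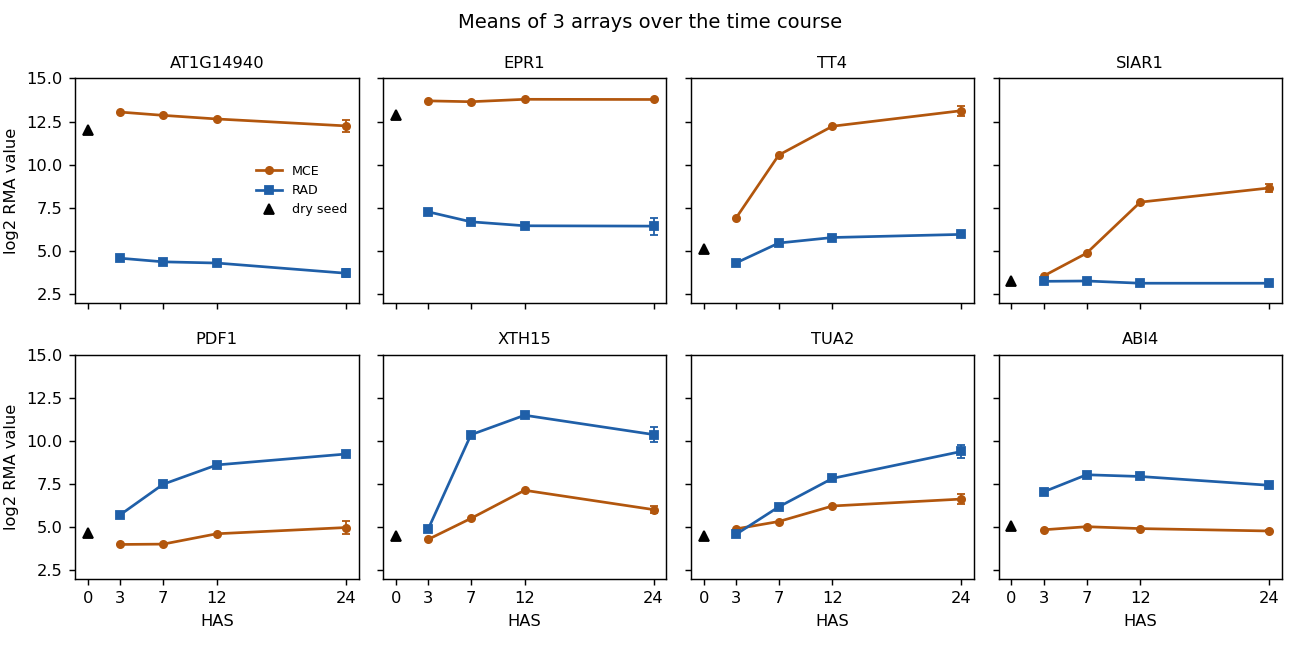
Mean log2 RMA value of 3 arrays (vertical axis) over hours after sowing (horizontal axis, the dry seed drawn at 0) for 8 genes in the MCE (orange) and the RAD (blue), with the SD at 24 HAS as bars. AT1G14940 and EPR1 differ at every time, TT4 and SIAR1 (UMAMIT18) differ more at 24 than at 3 HAS through the MCE, PDF1, XTH15 and TUA2 through the RAD, and ABI4 is higher in the RAD at every time.

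Dry seeds, whose RNA was isolated like that of the MCE, allowed a further look at the list. For 253 of the 633 MCE-high genes the dry seed mean was nearer to the MCE mean, and for 380 it was nearer to the RAD mean. For the 430 RAD-high genes it was nearer to the MCE mean in 316 and to the RAD mean in 114. In both lists the dry seed was thus more often nearer to the compartment with the lower mean. The same count over all genes is not given here. The whole dry seed also differs from both compartments in tissue and time, so these counts are a description. The part of the isolation method in them was not tested.

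The question of which differences changed between early imbibition and 24 HAS was tested by the contrast of the MCE minus RAD differences, in which the isolation methods are the same at both times. From 3 to 24 HAS the difference moved at least 3-fold for 296 genes, 173 towards the MCE (0.812% of all genes) and 123 towards the RAD (0.577%). Of the 20 phenylpropanoid and flavonol genes, 14 moved towards the MCE and 0 towards the RAD, and the median difference of the list was 0.13 at 3 HAS beside 2.58 at 24 HAS. FLS1 moved by 5.73 ± 0.391 (SE, limma adjusted p = 1.99e-10), from an MCE mean of 4.17 and a RAD mean of 3.31 at 3 HAS. PAL2 was higher in the RAD at 3 HAS (MCE 5.21, RAD 6.97) and higher in the MCE at 24 HAS (10.12 and 6.51).

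Towards the RAD, XTH15 moved by -3.77 ± 0.395 (adjusted p = 2.34e-07), from 4.28 in the MCE and 4.86 in the RAD at 3 HAS. HTA8, a histone H2A variant, moved by -3.13 ± 0.325, with RAD means of 4.15 at 3 HAS and 7.72 at 24 HAS and MCE means of 3.40 and 3.84. FAD3, a desaturase that makes linolenic acid, was higher in the MCE at 3 HAS (6.88 against 4.75) and at 7.15 against 8.62 at 24 HAS. The tubulins moved in part, 3 of 11 towards the RAD and 0 towards the MCE.

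From 12 to 24 HAS, 47 genes moved at least 3-fold, 30 towards the MCE (0.141%) and 17 towards the RAD (0.0798%). Towards the MCE, LOX4 moved by 2.39 ± 0.363 (adjusted p = 0.00054), and WRKY53, a WRKY factor of leaf senescence, and the glutaredoxin GRX480 moved by 2.02 ± 0.507 and 2.33 ± 0.486. WRKY53 measured 6.38, 7.92 and 8.42 on the MCE arrays at 24 HAS, with its first array below the others, and GRX480 measured 6.28, 7.97 and 8.44. The WRKY53 call was lost in 8 of the fits that left out 1 array (adjusted p = 0.0678 to 0.115) and when only the arrays compared were fitted (0.113), and the GRX480 call was lost in the latter (0.0556). Without the first MCE array at 24 HAS the count was 83 in place of 47. Towards the RAD, TUA4 moved by -2.31 ± 0.33 (adjusted p = 0.000254), with RAD means of 5.47 at 12 HAS and 7.84 at 24 HAS. SHD, an endoplasmic reticulum HSP90 chaperone, moved by -1.97 ± 0.37 and was still higher in the MCE at 24 HAS, at 10.13 against 8.33.

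**Figure D5:**
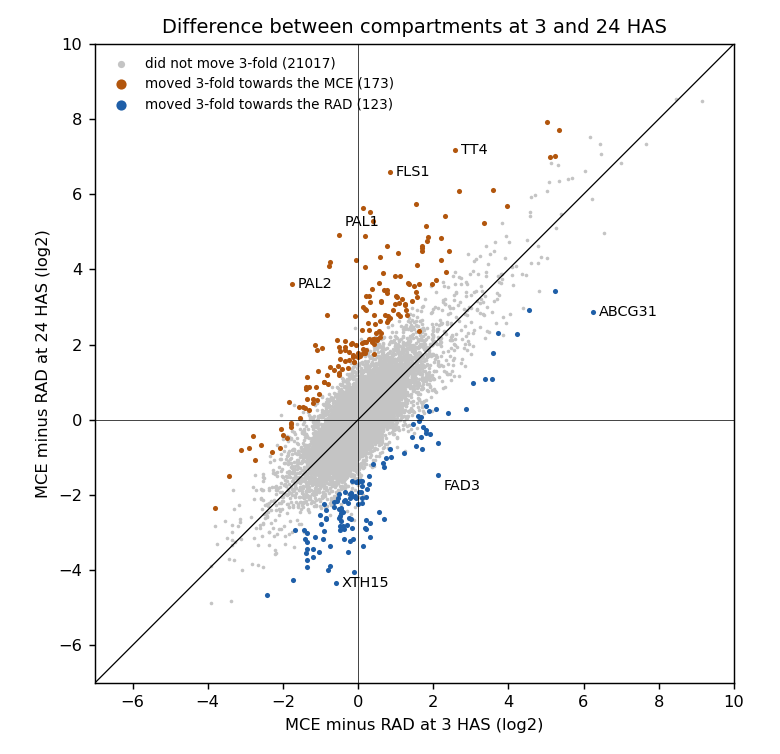
Difference between MCE and RAD (log2, MCE minus RAD) of each gene at 3 HAS (horizontal axis) and 24 HAS (vertical axis), with the line of equality and the 173 and 123 genes that moved at least 3-fold towards the MCE (orange) and the RAD (blue). FLS1, PAL1 and PAL2 lie far above the line, and XTH15 and ABCG31 below it.

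Called genes lay next to each other in part. Of 632 MCE-high genes with a place in the gene table, 55 (8.70%) had a directly neighbouring gene on the array that was also MCE-high, beside 5.81% of all 21205 genes placed. On the RAD side the shares were 28 of 429 (6.53%) and 3.99%. Beside the run AT1G14930 to AT1G14960, runs of 3 neighbours were AT1G65490 to AT1G65510, with differences of 4.86, 2.82 and 3.38, and AT2G43570 to AT2G43590, with 3.05, 6.84 and 7.06. AT2G43570 is annotated as a chitinase (CHI). A further run was AT3G57520 to AT3G57540, with 1.61, 1.61 and 2.06, which holds the raffinose synthase SIP2, the calcium-dependent kinase CPK32 and the remorin REM4.1. Neighbours can be copies of each other whose probes share signal, and this was not tested.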

How the data were processed

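Each of the 27 Affymetrix ATH1 arrays held RNA of 1 sample. The deposited table holds log2 expression values, which the authors computed by RMA together with chips not used here, with a custom gene-level probe definition and control probes removed. The files give no probe-level data, so the number of arrays limits the precision. Genes were named from a RefSeq gene table by locus (21205 of 21313 matched). From these values, 9 groups were fitted with limma 3.58.1 in R 4.3.3 (18 residual degrees of freedom), with Benjamini-Hochberg adjustment over all genes. Called genes had an adjusted p under 0.05 and at least 3-fold between means raised to at least 4. On simulated data for this comparison (21313 genes), 87 of 100 genes changed by 1 (log2) and 100 of 100 changed by 2 were past the adjusted p. At any fold, 12 unchanged genes were also past it. The changed genes were drawn from a middle range of RAD levels with normal noise, so dim genes were not covered.

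The members and lists were chosen with earlier results of these data known. Named genes, ranked by differences between means raised to at least 4, were the 12 largest per direction without overlapping arrays, per list up to 4 called members per direction (the 2 with the highest mean where fewer than 2 were called), and the 5 largest moves per direction. List members whose synonym has another meaning were left out. Promoter motifs were not analysed here. Alternatives covered the test, the floor, the fold, scaling, a filter on dim genes, the replicate number and each left-out array.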

Additional observations from a re-analysis of the deposited data

Results flagged for a closer look

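The difference between MCE and RAD was itself tested between times, and 296 genes moved by at least 3-fold between 3 and 24 HAS and 47 between 12 and 24 HAS. The genes given are the first 5 of each direction when means under 4 were raised to 4 before the move was taken. All values printed are the moves without this floor, the MCE minus RAD difference at 24 HAS less that at the earlier time (log2), so their order can differ, and a negative value is a move towards the RAD. From 3 HAS, the moves towards the MCE were 5.73 for FLS1, 5.51 for CHIL, 5.43 for PAL1, 5.37 for PAL2 and 4.93 for AT5G62210. The first 4 encode enzymes or a helper protein of flavonol synthesis. Those towards the RAD were -3.77 for XTH15, -3.60 for FAD3, -3.39 for ABCG31, -3.18 for AT5G01210 and -3.13 for HTA8. ABCG31 was still higher in the MCE at 24 HAS, by 2.86.

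From 12 HAS, the moves towards the MCE were 2.90 for AT1G22810, 2.39 for LOX4, 2.33 for GRX480, 2.12 for the ubiquitin ligase PUB29 and 2.02 for WRKY53. All of these had their lowest MCE value at 24 HAS on the first array. When only the arrays compared were fitted, the calls of AT1G22810, GRX480, PUB29 and WRKY53 were lost (limma adjusted p = 0.0701, 0.0556, 0.0964 and 0.113). With 1 array left out, the call of PUB29 was lost in 9 fits (adjusted p = 0.0566 to 0.123), that of WRKY53 in 8 (0.0678 to 0.115) and that of AT1G22810 without the third MCE array at 24 HAS (0.0505). The moves towards the RAD were -2.31 for TUA4, -2.30 for AT2G19460, -2.03 for ASG4, -1.99 for AT4G29270 and -1.97 for SHD. ASG4 and SHD were higher in the MCE at 24 HAS and had narrowed. Genes ranked lower had printed moves beyond some of those given, such as -3.96 for AT4G29270 and 5.21 for SIAR1 from 3 HAS and 2.33 for LOX3 and 2.23 for PAL1 from 12 HAS.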

How the results depend on the processing

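With a 2-fold in place of a 3-fold threshold the counts were 1513 for MCE-high and 1332 for RAD-high genes, and 981 and 180 for moves from 3 and from 12 HAS. The methods' t-test gave 628 MCE-high and 428 RAD-high genes at an unadjusted 0.05 and 606 and 427 after Benjamini-Hochberg adjustment, and 48 and 1 moves from 12 HAS in place of 47. Leaving out 1 array gave 596 to 684 MCE-high genes, 394 to 473 RAD-high genes, 280 to 351 moves from 3 HAS and 32 to 83 moves from 12 HAS, with 83 without the first MCE array at 24 HAS. Genes above 6 in the MCE or the RAD and below 5 in the other numbered 290 to 319 and 155 to 193. Under the other alternatives the counts stayed within 1.5 times. The share of MCE-high genes among calls was 59.5%, and 55.9% or 55.7% when arrays were scaled again by quantiles or medians, with a median difference over all genes of -0.044, -0.016 or -0.097. Same-numbered MCE and RAD arrays did not deviate together (r of -0.054, -0.035 and -0.0098), and the numbers are not known to pair them. With the replicate number as a block the counts were 633, 430, 296 and 49. Among 159 results of named genes, 0 were reversed. Of the 139 at 24 HAS, raising means to 5 removed 17 calls, the methods' t-test after adjustment 7, median centring 3 and quantile scaling 1. The calls lost with means raised to 5 included those of EXPA1, EXPA3, EXPA15, PIP1A, PIP1C, ABA3, ABCG31, LOX3, LOX6 and IAA2. The calls of WER, PCNA1, XTH4, XTH18, XTH23, KCS1 and GSTU14 were lost there too. All 10 moves from 12 HAS were lost in the adjusted t-test and 4 when only the arrays compared were fitted. The number of arrays limits the precision, and promoter motifs were not run.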
